A study of Mus musculus with 12 samples.

Results

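The comparison is between CGR8 cells carrying a netrin-1 variant that the labels call unc5B MUT, after the receptor Unc5b (n = 3 libraries), and the same cells carrying an empty vector (control, n = 3). It takes 6 of the 12 libraries of the study, chosen by their titles, and all genes of the deposited count table. CGR8 is a mouse embryonic stem cell line, and all groups were grown with serum and the cytokine leukemia inhibitory factor (LIF) after stable transfection of a vector whose name holds cagg, ires and puro. Besides the pair compared, the study has cells with unaltered netrin-1 (netrin-1 WT, n = 3) and cells with netrin-1 changed for neogenin (neo1 MUT, n = 3). The labels give neither the altered residues nor whether a group was a clone or a pool, and separate cultures behind the 3 libraries of a group are not stated, so the p-values speak for library-to-library spread alone, which could be technical. For unc5B MUT, 1 label calls the vector empty and another says that it expresses netrin-1.

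Netrin-1, encoded by Ntn1, is a secreted protein related to the laminins that was first known for guiding axons. It binds Dcc, neogenin and the Unc5 receptors. Dcc and the Unc5 proteins are also described as dependence receptors, which can trigger cell death when no ligand is bound. Embryonic stem cells in serum and LIF are a mixed population, in which a few cells can take on features of primitive endoderm or of the 2-cell embryo.

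Total estimated counts were 59735737, 40716913 and 23804324 in the unc5B MUT libraries numbered 1, 2 and 3, and 41541395, 38373424 and 22256195 in the control libraries. The number 3 libraries of all 4 groups lay apart from the other 8 on the first principal component, which held 70.2% of the variance. Fold changes therefore come from a fit of all 12 libraries with the replicate number as a block, and differences within each number are given beside them. The pluripotency factor Pou5f1 stood at 1317, 1098 and 1472 CPM (counts scaled to a common library size) in unc5B MUT libraries 1 to 3, against 1303, 1081 and 1398 CPM in control, with overlapping groups. Here a gene is said to have risen or fallen when its adjusted p was under 0.05 in edgeR's quasi-likelihood test.

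Few genes differed between unc5B MUT and control past the threshold. Of 21053 genes tested, 6 passed, or 0.0285%. The 5 that rose (0.0237%) were Ntn1, Magee2, Dag1, Amt and Rhoa, and the 1 that fell (0.00475%) was Strada. At an unadjusted p under 0.05 there were 990 genes (4.7%), 525 higher (2.49%) and 465 lower (2.21%). The groups did not overlap for 922 genes (4.38%), and 57 genes (0.271%) differed at least 2-fold in the same direction in each of the 3 numbers. At a mean of at least 5 CPM, these were 6 higher genes (Ntn1, Xlr3c and the predicted genes Gm47808, Gm46349, Gm44660 and Gm4202) and 4 lower ones (Clic6, Cubn, Myo7a and Dab2). The fit placed the 95% interval of the log2 fold change within 1 of 0 for 12596 genes (59.8%), and for 10249 (92.3%) of the 11109 genes with a mean of at least 5 CPM. For the remaining genes the interval reached past a 2-fold difference.

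The count depended on the libraries used. Without the number 3 libraries of all groups 16 genes passed, among them all 6, and without the number 1 or the number 2 libraries 0 passed (edgeR; 518 and 682 genes at an unadjusted p under 0.05). Leaving out unc5B MUT library 1, 2 or 3 left 3, 2 and 2 genes, and leaving out control library 1, 2 or 3 left 2, 3 and 7. Without the block 0 genes passed, with 238 at an unadjusted p under 0.05, and DESeq2 with the block called 105. For this pair 10 of 20347 genes had an adjusted p under 0.05 in the authors' deposited table, the 6 above and Amn, Nicn1, Uqcrfs1 and Ranbp9.

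**Figure D1:**
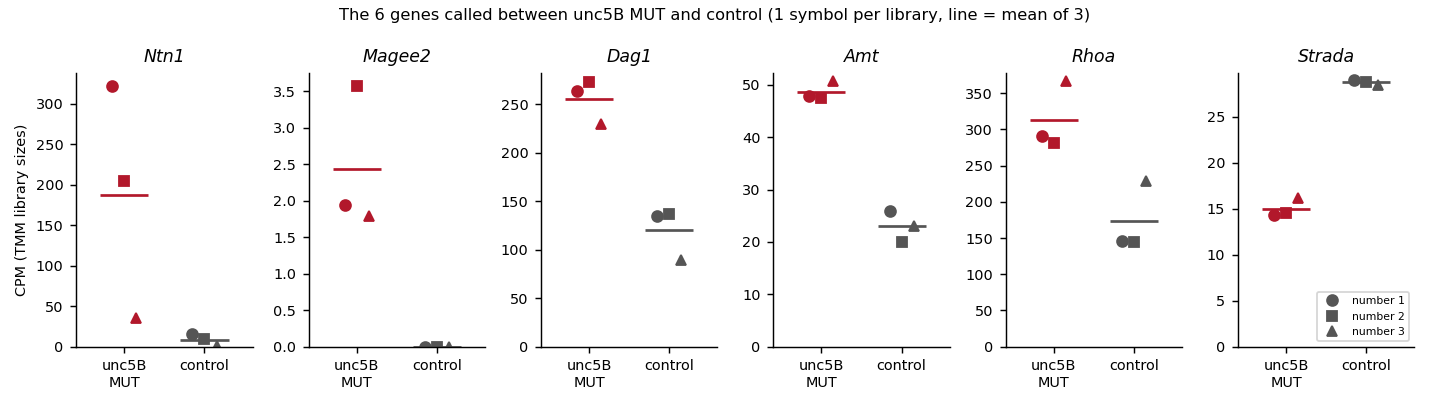
Each symbol is 1 library's CPM (TMM library sizes, linear axes from 0) of a called gene in unc5B MUT and control, and the line is the mean of 3 libraries; symbol shapes mark the replicate numbers. The unc5B MUT libraries lie above all control libraries in 5 genes, Magee2 is at 0 in all 3 control libraries, and Strada lies near 15 CPM in unc5B MUT and near 28.8 CPM in control.

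Ntn1 (ENSMUSG00000020902, chr11:68209364-68400823, minus strand, GRCm38) checks the transfection. It was at 322, 204 and 34.9 CPM in unc5B MUT libraries 1 to 3, against 15.4, 9.09 and 0.782 CPM in control. Number 3 was the lowest library in both groups, and the unc5B MUT library of number 3 still lay above every control library. The log2 fold change was 4.49 ± 0.35 (SE; adjusted p = 0.0016), with 4.38, 4.48 and 5.38 within numbers 1, 2 and 3. Reads of the native gene and of a matching vector transcript cannot be told apart in these counts. The nearest tested genes on either side, Pik3r5 and Stx8, had log2 fold changes of -0.15 ± 0.31 and 0.06 ± 0.16.

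Magee2 (ENSMUSG00000031224, chrX:104854952-104857267, minus strand), of the MAGE family of ubiquitin ligase partners, held 121, 164 and 33.1 estimated counts in unc5B MUT libraries 1 to 3 and 0 in each control library. Its mean in unc5B MUT was 2.44 ± 0.99 CPM (SD, n = 3), at least 85.3-fold higher than control if 3 counts summed over its libraries are taken as the floor (0.0286 CPM; the floor covers counting error only), with an adjusted p of 0.00355 (0.18 in a fit of the 6 compared libraries alone). All netrin-1 groups had reads, with 1.31 to 3.90 CPM in netrin-1 WT and 1.42 to 2.72 CPM in neo1 MUT. The neighbouring 5530601H04Rik and Gm14822 each had a log2 fold change of -0.24, with SEs of 0.26 and 0.41. Of the 16 tested MAGE-list genes 1, Magee2 itself, rose and 0 fell, which only repeats its call (0.0237% of all genes rose).

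Dag1, Amt and Rhoa lie close together on chromosome 9, with neighbours that did not pass. Dag1 (ENSMUSG00000039952, chr9:108204634-108263958) encodes dystroglycan, a receptor for laminins, and was at 263, 273 and 230 CPM in unc5B MUT, against 135, 137.1 and 89.8 CPM in control. Amt (ENSMUSG00000032607, chr9:108296853-108302302), the aminomethyltransferase of the glycine cleavage system, was at 47.8, 47.5 and 50.7 CPM in unc5B MUT, against 25.8, 19.9 and 23.1 CPM in control. Rhoa (ENSMUSG00000007815, chr9:108306129-108337934), a small GTPase of the actin cytoskeleton, was at 292, 282 and 367 CPM in unc5B MUT, against 146, 145 and 229 CPM in control. For all 3 genes every unc5B MUT library lay above every control library.

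Log2 fold changes were 1.10 ± 0.11 for Dag1 (adjusted p = 0.00547), 1.09 ± 0.12 for Amt (adjusted p = 0.0125) and 0.87 ± 0.11 for Rhoa (adjusted p = 0.0267). These calls were lost when libraries were left out: for Amt and Rhoa without any 1 unc5B MUT library or without control library 1 or 2 (adjusted p of 0.0779 to 0.197 for Amt and 0.132 to 0.315 for Rhoa), and for Dag1 without unc5B MUT library 2 or 3 or control library 1 (0.0521 to 0.0716). With the 6 compared libraries alone the adjusted p was 0.149 for Dag1, 0.155 for Amt and 0.18 for Rhoa. Between them lie Nicn1 and Tcta. Nicn1, a subunit of the tubulin polyglutamylase complex, was at 17.5, 15.9 and 8.86 CPM in unc5B MUT and 7.35, 6.41 and 4.58 CPM in control, at a log2 fold change of 1.17 ± 0.21 (adjusted p = 0.203). Tcta was at 5.999, 5.58 and 4.46 CPM in unc5B MUT and 3.36, 2.42 and 2.40 CPM in control (0.97 ± 0.22, adjusted p = 0.401). Groups did not overlap for either gene. Tcta and Rhoa overlap on opposite strands, and the use of strand in counting is not stated. Just outside this stretch, the flanking Bsn and Gpx1 had log2 fold changes of 0.35 ± 0.37 and -0.08 ± 0.15.

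The same stretch was above control in the other netrin-1 groups, which share the control libraries. Median log2 fold changes of the 4 genes with at least 5 CPM were 1.10 in unc5B MUT, 0.98 in netrin-1 WT and 1.05 in neo1 MUT. Between unc5B MUT and netrin-1 WT the median was 0.07 and 0 of the 4 passed (edgeR; of all genes 414 passed, or 1.97%, with 211 higher, or 1%, and 203 lower, or 0.964%). In the dystroglycan complex list 1 of 23 tested genes, Dag1 itself, rose and 0 fell (median log2 fold change 0.06). In the glycine cleavage and one-carbon list 1 of 23 tested gene IDs, that of Amt, rose and 0 fell (0.02). Over all genes 0.0237% rose, and these list counts only repeat the calls of Dag1 and Amt. The median over all genes tested was 0.02.

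The start regions of the called genes other than Ntn1, and of Map3k3 and Limd2 beside Strada, are printed because 3 of these genes lie close together on chromosome 9 and 3 on chromosome 11. They are RefSeq windows of 300 bases (GRCm38.p6, 5′ to 3′ on the gene's strand), with the GC box GGGCGG, the CCAAT box CCAAT and the TATA box TATAAA in capitals on either strand. Dag1 is chr9:108263909-108264208 (minus), Amt chr9:108296655-108296954 (plus), Rhoa chr9:108305910-108306209 (plus), Map3k3 chr11:106084337-106084636 (plus), Limd2 chr11:106160680-106160979 (minus), Strada chr11:106193554-106193853 (minus) and Magee2 chrX:104857218-104857517 (minus). The Strada window lies 8565 bases from the start of the gene in the GENCODE annotation.
Dag1: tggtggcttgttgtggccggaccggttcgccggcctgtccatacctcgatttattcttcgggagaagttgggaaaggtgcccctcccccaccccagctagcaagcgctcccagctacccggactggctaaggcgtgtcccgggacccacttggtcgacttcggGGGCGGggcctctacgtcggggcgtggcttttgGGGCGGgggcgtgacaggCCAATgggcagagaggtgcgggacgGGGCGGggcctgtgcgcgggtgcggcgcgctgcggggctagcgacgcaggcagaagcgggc
Amt: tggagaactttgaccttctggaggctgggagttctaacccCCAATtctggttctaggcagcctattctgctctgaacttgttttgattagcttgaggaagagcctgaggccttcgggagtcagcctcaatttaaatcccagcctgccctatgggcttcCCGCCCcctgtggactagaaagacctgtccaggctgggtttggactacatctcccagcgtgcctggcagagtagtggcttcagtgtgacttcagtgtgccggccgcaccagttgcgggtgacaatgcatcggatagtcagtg
Rhoa: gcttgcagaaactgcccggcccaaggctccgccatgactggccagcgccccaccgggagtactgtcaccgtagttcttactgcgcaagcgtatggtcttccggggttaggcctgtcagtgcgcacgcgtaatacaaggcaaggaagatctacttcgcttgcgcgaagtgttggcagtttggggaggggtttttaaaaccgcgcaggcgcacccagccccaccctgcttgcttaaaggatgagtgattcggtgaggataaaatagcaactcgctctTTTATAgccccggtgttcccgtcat
Map3k3: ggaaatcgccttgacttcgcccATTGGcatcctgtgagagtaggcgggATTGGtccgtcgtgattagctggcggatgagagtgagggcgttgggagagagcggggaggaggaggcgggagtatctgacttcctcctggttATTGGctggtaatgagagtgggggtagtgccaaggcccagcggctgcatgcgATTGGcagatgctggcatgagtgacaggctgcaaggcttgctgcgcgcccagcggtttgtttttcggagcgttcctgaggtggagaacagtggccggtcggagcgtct
Limd2: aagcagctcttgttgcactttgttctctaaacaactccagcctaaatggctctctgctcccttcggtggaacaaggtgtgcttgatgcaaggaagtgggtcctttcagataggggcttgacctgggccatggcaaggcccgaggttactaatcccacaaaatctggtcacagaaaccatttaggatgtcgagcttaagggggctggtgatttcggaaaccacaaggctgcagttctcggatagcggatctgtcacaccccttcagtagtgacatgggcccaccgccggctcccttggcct
Strada: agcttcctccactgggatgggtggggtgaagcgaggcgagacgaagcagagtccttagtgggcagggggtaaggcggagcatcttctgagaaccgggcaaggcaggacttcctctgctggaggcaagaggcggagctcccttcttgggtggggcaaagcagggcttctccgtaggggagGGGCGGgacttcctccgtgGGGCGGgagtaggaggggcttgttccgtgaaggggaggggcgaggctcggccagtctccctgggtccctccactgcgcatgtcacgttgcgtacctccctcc
Magee2: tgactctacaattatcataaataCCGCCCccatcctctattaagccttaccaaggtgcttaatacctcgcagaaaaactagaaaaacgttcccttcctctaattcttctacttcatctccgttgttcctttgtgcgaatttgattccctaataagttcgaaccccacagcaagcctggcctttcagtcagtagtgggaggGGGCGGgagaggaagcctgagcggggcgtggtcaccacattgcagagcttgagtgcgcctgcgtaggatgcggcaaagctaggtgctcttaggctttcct

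None of the motifs was in all 7 windows. The Dag1 window holds 3 GC boxes, 1 CCAAT box and 30 CG dinucleotides, and the Amt window 1 GC box, 1 CCAAT box and 7 CG. The Rhoa window holds 1 TATA box and 21 CG. This TATA box reads TATAAA on the strand opposite to Rhoa, in bases shared with the Tcta window (chr9:108306110-108306409, minus, not printed). On chromosome 11 the Map3k3 window holds 4 CCAAT boxes and 19 CG, the Limd2 window none of the 3 motifs and 8 CG, and the Strada window 2 GC boxes and 16 CG. The Magee2 window has 2 GC boxes and 12 CG. Of 32851 mouse windows of this length, 35.7% hold a GC box, 37.4% a CCAAT box and 13.6% a TATA box, and the median window has 7 CG.

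On chromosome 11, Strada fell, and its neighbours Limd2 and Map3k3 had similar fold changes that did not pass. Strada (ENSMUSG00000069631, chr11:106163330-106202168, minus strand) encodes the pseudokinase that binds the kinase LKB1, and was at 14.3, 14.5 and 16.1 CPM in unc5B MUT, against 29.0, 28.8 and 28.5 CPM in control. The groups did not overlap, and every library of a group lay within a few CPM of the others. The log2 fold change was -0.94 ± 0.13 (adjusted p = 0.045). The Strada call was lost without any 1 unc5B MUT library or without control library 1 or 2 (adjusted p of 0.182 to 0.573), and with the 6 compared libraries alone (0.18). Of the 23 tested genes of the LKB1 complex and its kinases 0 rose and 1, Strada itself, fell (median 0.01), beside 0.00475% of all genes.

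Map3k3, a kinase upstream of MAP kinases and NF-kappaB, was at 23.3, 24.7 and 29.4 CPM in unc5B MUT and 47.1, 50.2 and 55.1 CPM in control, at a log2 fold change of -0.98 ± 0.17 (adjusted p = 0.193). Limd2, a LIM domain protein, was at 10.4, 13.2 and 14.9 CPM in unc5B MUT and 21.8, 21.8 and 34.0 CPM in control (-1.01 ± 0.18, adjusted p = 0.203). Neither gene overlapped between the groups. On the Map3k3 side Dcaf7 and Taco1 had log2 fold changes of -0.18 ± 0.11 and -0.11 ± 0.22, and on the Strada side Ccdc47 and Ddx42 had -0.19 ± 0.17 and -0.01 ± 0.11.

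The difference set unc5B MUT apart from the other netrin-1 groups too. Strada was at 30.5, 32.7 and 41.1 CPM in netrin-1 WT and at 33.5, 34.1 and 37.8 CPM in neo1 MUT, above every unc5B MUT library. Against netrin-1 WT the log2 fold changes were -1.21 for Strada (adjusted p = 0.0021), -1.30 for Limd2 (adjusted p = 0.0083) and -0.99 for Map3k3 (adjusted p = 0.019), so all 3 fell in unc5B MUT against netrin-1 WT. The 3 genes cover chr11:106084613-106202168, and this stretch was picked after its values were seen.

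**Figure D2:**
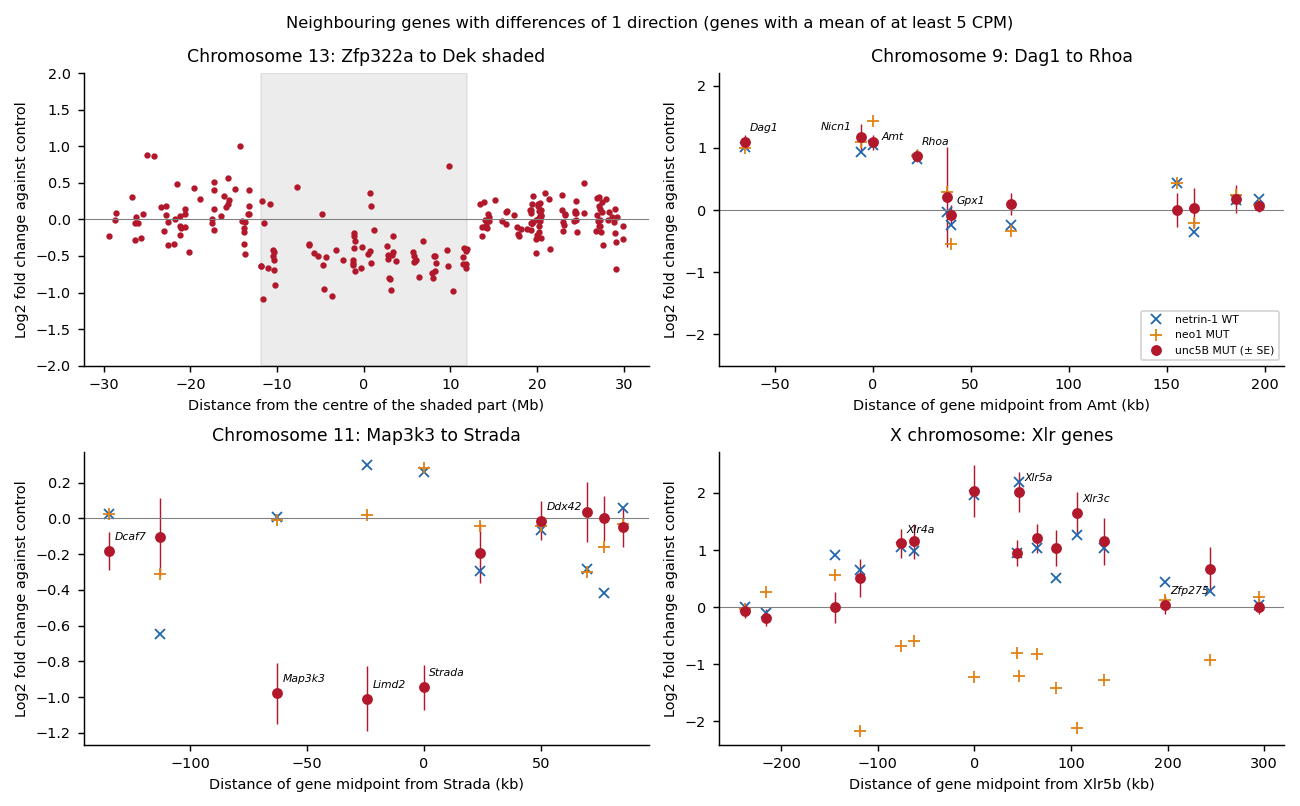
Each point is a gene with a mean of at least 5 CPM, placed by its distance from the named gene or centre, with its log2 fold change against control (bars ± SE for unc5B MUT; crosses and pluses for netrin-1 WT and neo1 MUT, which share the control). Genes of the chromosome 13 stretch scatter around -0.51, the chromosome 9 genes lie near 1 in all netrin-1 groups, Map3k3, Limd2 and Strada lie near -1 in unc5B MUT alone among the plotted groups, and the Xlr genes lie above 0 in unc5B MUT and netrin-1 WT and below 0 in neo1 MUT.

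Positional runs were then listed over the genome, again after values had been seen and with no test. Among genes with at least 5 CPM there were 10 runs of 3 or more consecutive genes with log2 fold changes of 1 sign and a size of at least 0.5. Each gene of a run also had to differ in 1 direction within all 3 numbers. Of these, 6 runs of lower genes were on chromosome 13, and chromosomes 9, 11, 14 and X had 1 each. The chromosome 14 run consists of the predicted genes Gm10409, Gm2974 and Gm3194.

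On chromosome 13 the runs fell in a single stretch from Zfp322a to Dek (chr13:23353103-47106201, 23.8 Mb). Its 75 genes had a median log2 fold change of -0.51, with -0.55, -0.53 and -0.47 within numbers 1, 2 and 3. Of these genes 68 (90.7%) were below 0, beside 48.95% of all genes with at least 5 CPM. At an unadjusted p under 0.05, 49 of the 75 were lower and 0 higher, beside 269 lower and 279 higher of 11103 genes with at least 5 CPM, while 0 of the 75 passed after adjustment. The 60 genes before the stretch had a median of 0.05 and the 285 genes after it one of -0.01. Both ends were set at lower genes after values were seen. The contrast of the stretch with its flanks therefore follows in part from that choice.

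Gmnn, the inhibitor of replication licensing geminin, was at 109, 103 and 145 CPM in unc5B MUT and 157.5, 149.7 and 197 CPM in control, at a log2 fold change of -0.50 ± 0.09 (adjusted p = 0.196). Ranbp9, a scaffold of a ubiquitin ligase, was at 36.6, 34.9 and 51.7 CPM in unc5B MUT and 66.0, 56.1 and 77.7 CPM in control (-0.71 ± 0.12, adjusted p = 0.146). Uqcrfs1, the iron-sulfur subunit of respiratory complex III, was at 102, 98.5 and 77.8 CPM in unc5B MUT and 161, 152 and 115 CPM in control (-0.62 ± 0.10, adjusted p = 0.146). The groups did not overlap for any of the 3. In each number unc5B MUT was lower, but the rule that picked these genes required 1 sign in all numbers.

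Dsp, the desmosomal protein desmoplakin, had a log2 fold change of -0.80 ± 0.12 (adjusted p = 0.11), with overlapping groups. Its value was lower in unc5B MUT in every number, which the same rule required. Dek, a chromatin protein, was at 311, 314 and 342 CPM in unc5B MUT and 402, 474 and 401 CPM in control (-0.40 ± 0.11). For Jarid2, a partner of the Polycomb complex, number 3 went the other way, with 470, 462 and 449 CPM in unc5B MUT and 692, 783 and 397 CPM in control. The median log2 fold change of the stretch against the same control was -0.51 in unc5B MUT, -0.50 in netrin-1 WT and -0.39 in neo1 MUT. Between unc5B MUT and netrin-1 WT it was 0.01, and 1 of the 75 genes passed.

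Chromosome 3 differed by a smaller amount on both sides of 55 Mb. The 521 genes with at least 5 CPM had a median log2 fold change of 0.20 (0.18, 0.16 and 0.21 within numbers 1, 2 and 3). Of these genes 454 (87.1%) were above 0, beside 51.05% of all genes with at least 5 CPM. The other chromosomes had medians between -0.05 and 0.06. In bins of 5 Mb with at least 10 such genes, 13 of 371 had a median beyond 0.2 either way. Of these, 8 were on chromosome 3, 4 on chromosome 13 and 1 on chromosome 14. That of chromosome 14 (30 to 35 Mb, 40 genes) had -0.24, with -0.18, -0.22 and -0.19 within numbers 1, 2 and 3. Its median against control was -0.29 in netrin-1 WT and -0.16 in neo1 MUT. Single genes of chromosome 3 did not pass: Stmn2, which encodes the tubulin-binding protein stathmin-2, was at 428, 330 and 369 CPM in unc5B MUT and 268, 224 and 249 CPM in control, at a log2 fold change of 0.60 ± 0.09 (adjusted p = 0.0794), without overlap. Sox2 was at 384, 410 and 273 CPM in unc5B MUT and 367, 365 and 234 CPM in control (0.15 ± 0.13).

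Along chromosome 3 the netrin-1 groups had different medians. Between 5 and 55 Mb the median against control was 0.18 in unc5B MUT, 0.92 in netrin-1 WT and 0.11 in neo1 MUT. Past 55 Mb it was 0.20 in unc5B MUT, -0.07 in netrin-1 WT and 0.02 in neo1 MUT. Of the 521 genes 84 passed between unc5B MUT and netrin-1 WT, 55 of them among the 111 genes before 55 Mb, beside 308 of all 11103 genes with at least 5 CPM. On chromosome 15 the median was 0.04 in unc5B MUT, -0.34 in netrin-1 WT and -0.44 in neo1 MUT, and 33 of its 458 genes passed between unc5B MUT and netrin-1 WT. Over the 94 genes of chr6:120203073-136941899 the medians were -0.01 in unc5B MUT, 0.40 in netrin-1 WT and 0.05 in neo1 MUT.

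**Figure D3:**
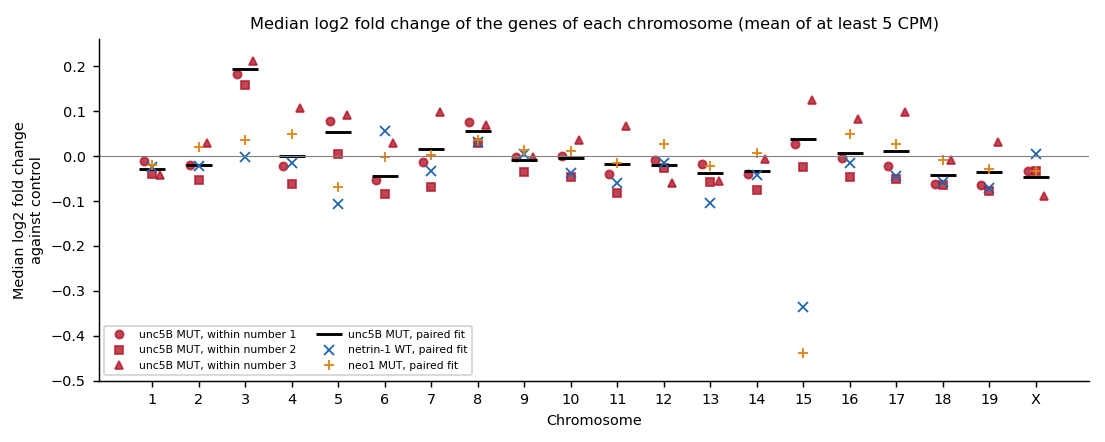
For each chromosome the symbols give the median log2 fold change over its genes with at least 5 CPM, within each number for unc5B MUT against control (circle, square, triangle) and from the paired fit for unc5B MUT, netrin-1 WT and neo1 MUT. Chromosome 3 lies at 0.20 in unc5B MUT with all 3 numbers above 0.15, while chromosome 15 is near 0 in unc5B MUT and at -0.34 and -0.44 in netrin-1 WT and neo1 MUT.

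The Xlr genes of the X chromosome, a family of lymphocyte-regulated genes related to the meiotic protein Sycp3, were above control in a stretch of 9 (chrX:73074345-73292976). Their median log2 fold change was 1.15, with 1.35, 1.5 and 0.49 within numbers 1, 2 and 3, and 0 of the 9 passed. Xlr3c was at 32.8, 26.7 and 11.8 CPM in unc5B MUT and 11.1, 6.31 and 5.14 CPM in control, at a log2 fold change of 1.66 ± 0.36 (adjusted p = 0.354), without overlap. Xlr5a was at 11.2, 9.49 and 12.3 CPM in unc5B MUT and 1.86, 1.87 and 6.31 CPM in control (2.02 ± 0.35, adjusted p = 0.196), also without overlap. These genes are near-identical copies, so how reads were divided among them is uncertain. The median was 1.04 in netrin-1 WT and -1.21 in neo1 MUT against the same control, and the adjacent Zfp275 had 0.03 ± 0.15 in unc5B MUT.

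Among the other genes next in order of p, Lrrc8d, a subunit of volume-regulated anion channels, was at 61.3, 46.4 and 68.2 CPM in unc5B MUT and 23.8, 27.0 and 37.4 CPM in control, at a log2 fold change of 1.01 ± 0.16 (adjusted p = 0.114). Ifitm3, an interferon-induced membrane protein, was at 103, 97.9 and 113 CPM in unc5B MUT and 68.7, 71.8 and 52.2 CPM in control (0.71 ± 0.13, adjusted p = 0.204). Glb1, the lysosomal beta-galactosidase, was at 65.2, 47.4 and 48.4 CPM in unc5B MUT and 104, 80.3 and 67.1 CPM in control (-0.64 ± 0.12, adjusted p = 0.203). The groups did not overlap for any of the 3. Against netrin-1 WT, Ifitm3 rose (0.61, adjusted p = 0.044) and Glb1 fell (-0.60, adjusted p = 0.031).

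Further members of that order on the higher side included Dst (0.65 ± 0.13), Rpl39l (0.59 ± 0.12), Sec24d (0.52 ± 0.11) and Xlr4b (1.21 ± 0.25), all with adjusted p between 0.317 and 0.345. On the lower side Fam8a1 (-0.61 ± 0.11) and Carmil1 (-0.66 ± 0.12) belong to the chromosome 13 stretch, which holds 6 of the next 10 lower genes.

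The receptors of netrin-1 did not pass in either direction. Of 11 listed receptors 10 were tested, all but Dcc, with 0 called and a median log2 fold change of 0.01. Unc5b was at 25.1, 24.8 and 16.4 CPM in unc5B MUT and 24.1, 25.7 and 23.2 CPM in control (log2 fold change -0.17, 95% interval -0.53 to 0.20). Neo1 was at 85.3, 76.8 and 30.1 CPM in unc5B MUT and 79.9, 70.1 and 38.8 CPM in control (-0.04, interval -0.31 to 0.23). Groups overlapped for both receptors, and both intervals lie inside a 2-fold difference either way.

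Mcam, a cell adhesion molecule described as a netrin-1 receptor, had a log2 fold change of 0.32 (interval -0.11 to 0.75). Unc5a, Unc5c and Unc5d lay under 2 CPM in all unc5B MUT and control libraries. Of the 6 tested genes of the ligand list Ntn1 rose, and Ntn4, Ntng2, Rgma, Rgmb and Draxin had log2 fold changes between -0.57 and 0.16. In the lists of receptor effectors (28 tested) and of dependence receptor death effectors (18 tested) 0 genes passed, with medians of -0.02 and 0.02. Bcl2l11, which encodes the pro-apoptotic protein Bim, was the gene of the death list with the lowest p (log2 fold change -0.34 ± 0.12, adjusted p = 0.949).

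Primitive endoderm markers were lower in unc5B MUT than in control by values that did not pass singly. Of 26 listed genes 24 were tested, all but Ttr and Afp, and 0 were called. Below 0 were 21 of the 24, beside 9937 of all 21053 genes tested. At an unadjusted p under 0.05, 8 were lower (2.21% over all genes). The median log2 fold change was -0.50, with -0.43, -0.61 and -0.39 within numbers 1, 2 and 3. Summed over the list, the level was 4032, 3118 and 5547 CPM in unc5B MUT libraries 1 to 3 and 4375, 3821 and 6802 CPM in control, lower in unc5B MUT within each number. Fewer cells of this type and less RNA per cell cannot be told apart in bulk RNA.

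Amn and Cubn encode the amnionless and cubilin subunits of an endocytic receptor of visceral endoderm. Amn was at 7.51, 7.27 and 9.83 CPM in unc5B MUT and 17.3, 16.1 and 18.5 CPM in control, at a log2 fold change of -1.08 ± 0.17 (adjusted p = 0.137; the authors' deposited table gives -1.11 and an adjusted p of 0.0102). Cubn was at 53.5, 65.0 and 36.3 CPM in unc5B MUT and 132, 144 and 100.3 CPM in control (-1.32 ± 0.31, adjusted p = 0.402). Dab2, an endocytic adaptor, was at 53.4, 48.1 and 43.8 CPM in unc5B MUT and 113, 101.5 and 93.2 CPM in control (-1.08 ± 0.41, adjusted p = 0.974). For all 3 genes each unc5B MUT library was below each control library, while over all genes tested the groups did not overlap for 4.38%. These 3 were the genes of the list with the lowest log2 fold changes.

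Transcription factors of the lineage had log2 fold changes nearer to 0. Gata6 was at 50.7, 39.1 and 40.04 CPM in unc5B MUT and 78.4, 59.7 and 50.3 CPM in control (log2 fold change -0.53 ± 0.21), with overlapping groups. Sox17 was at 10.37, 5.27 and 8.09 CPM in unc5B MUT and 18.99, 10.45 and 10.44 CPM in control (-0.74 ± 0.29), and its highest unc5B MUT value lay just under its lowest control value. The receptor Pdgfra had -0.35 ± 0.22. Of the basement membrane genes, Col4a2 had -0.54 ± 0.19 and Lama1 -0.51 ± 0.22, and Lamc1, Nid1 and Nid2 lay between -0.12 and 0.00.

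Set against netrin-1 WT, the same markers were higher in unc5B MUT. The median log2 fold change between unc5B MUT and netrin-1 WT was 1.51, and 14 of the 24 genes rose and 0 fell, beside 1% of all genes rising. The contrast was not particular to netrin-1 WT. Against control the medians were -1.91 in netrin-1 WT and -1.85 in neo1 MUT. Between unc5B MUT and neo1 MUT 17 of the 24 rose and 0 fell, beside 691 of all 21053 genes rising. Amn was at 2.31, 2.15 and 1.99 CPM and Dab2 at 5.71, 5.89 and 9.74 CPM in netrin-1 WT libraries 1 to 3. The log2 fold changes of unc5B MUT over netrin-1 WT were 1.91 for Amn (adjusted p = 0.0017), 2.75 for Dab2 (adjusted p = 0.015), 2.58 for Cubn (adjusted p = 0.0054), 1.69 for Gata6 (adjusted p = 0.0056) and 2.15 for Pdgfra (adjusted p = 0.0023). Every unc5B MUT library lay above every netrin-1 WT library for these genes, which largely repeats their calls. The calls between these groups rest on the libraries as well. Against the 414 genes above, 2845 passed without the number 3 libraries, 36, 36 and 106 without unc5B MUT library 1, 2 or 3, 210, 280 and 754 without control library 1, 2 or 3, and 0 without the number 1 or number 2 libraries or without the block.

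**Figure D4:**
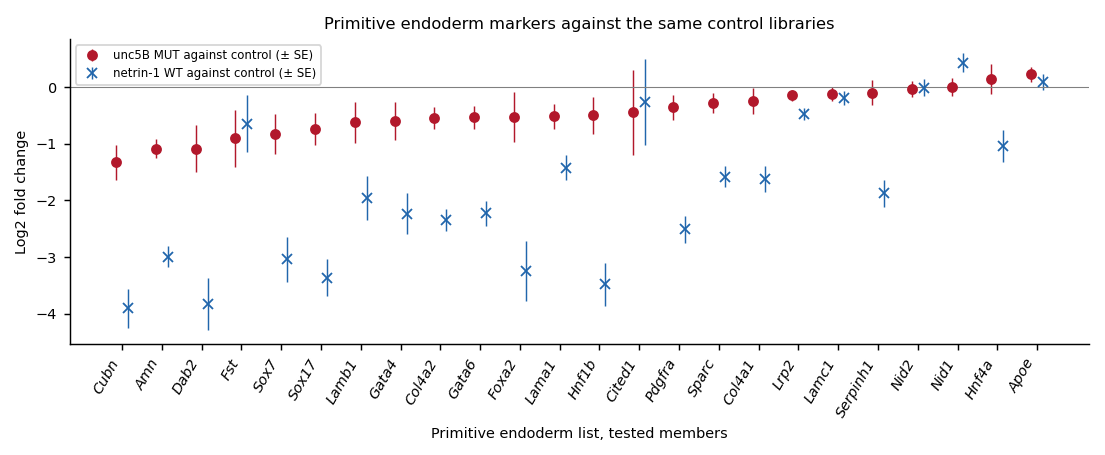
Log2 fold changes (± SE) of the 24 tested primitive endoderm markers against the shared control, for unc5B MUT (circles) and netrin-1 WT (crosses), ordered by the unc5B MUT value. In unc5B MUT 21 of 24 lie below 0 with a median of -0.50, and in netrin-1 WT the median is -1.91.

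Markers of trophectoderm and simple epithelia were mostly below control too. Of 16 tested genes 0 passed and 13 were below 0, beside 9937 of all 21053 genes tested. The median was -0.31 (-0.49, -0.35 and -0.35 within numbers 1, 2 and 3). At an unadjusted p under 0.05, 3 were lower and 1 higher (2.21% and 2.49% over all genes). Krt8 was at 33.0, 23.0 and 25.2 CPM in unc5B MUT and 61.2, 36.9 and 49.2 CPM in control (log2 fold change -0.85 ± 0.38), without overlap. Its partner keratin Krt18 had -0.76 ± 0.33 and the transcription factor Gata3 -0.89 ± 0.31, while Tfap2c, another trophectoderm factor, had 0.61 ± 0.22.

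Pluripotency genes lay close to control. The 15 naive and 12 core genes had medians of 0.05 and 0.06 with 0 called. All 15 and all 12 had a 95% interval within 1 of 0. So did 92.3% of genes with a mean of at least 5 CPM and 59.8% of all genes tested. Nanog was at 266, 154 and 157 CPM in unc5B MUT and 269, 137.5 and 128 CPM in control (log2 fold change 0.13 ± 0.29), and Esrrb had 0.11 ± 0.16. The groups overlapped for both. The 14 tested formative and primed genes had a median of 0.11 and 0 called.

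The 2-cell-like list had a median of 0.41 over 17 tested genes, with -0.06, 0.58 and 0.55 within numbers 1, 2 and 3, and 0 called. Above 0 were 15 of the 17, beside 11116 of all 21053 genes tested. Zscan4f, of the Zscan4 cluster that marks this state, was at 4.29, 6.58 and 1.41 CPM in unc5B MUT and 3.92, 3.52 and 1.12 CPM in control (log2 fold change 0.49 ± 0.45), and the groups overlapped. In netrin-1 WT it was at 18.01, 16.4 and 10.9 CPM, and it fell in unc5B MUT against netrin-1 WT (-2.16, adjusted p = 0.039). The copies of this cluster are alike in sequence, so their separate counts are uncertain.

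No gene passed in the remaining lists, which had medians between -0.24 and 0.17. Among them were targets of ERK, Wnt and p53, and lists of LIF, BMP and Nodal genes that mix receptors and transducers with targets. Others were the unfolded protein response, cholesterol biosynthesis, hypoxia and glycolysis, the cell cycle, integrins, cadherins, imprinted genes and germline genes silenced by DNA methylation. Within-number medians of the remaining lists disagreed in sign in several cases. Cholesterol biosynthesis had -0.05, 0.05 and -0.47 in numbers 1, 2 and 3, and mitochondrial mRNAs had 0.24, 0.32 and -0.23. Sign counts were one-sided in some of these lists too. Below 0 were 20 of 22 cholesterol genes, 19 of 24 hypoxia and glycolysis gene IDs and 7 of 7 Y-linked genes. Above 0 were 12 of 13 mitochondrial mRNAs. Of all 21053 genes tested, 9937 were below 0 and 11116 above. Y-linked genes marked neo1 MUT off from the pair compared here. Ddx3y was at 89.4, 92.9 and 39.98 CPM in unc5B MUT and 107, 95.6 and 49.4 CPM in control, but at 0.726, 0.445 and 0.367 CPM in neo1 MUT.

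**Figure D5:**
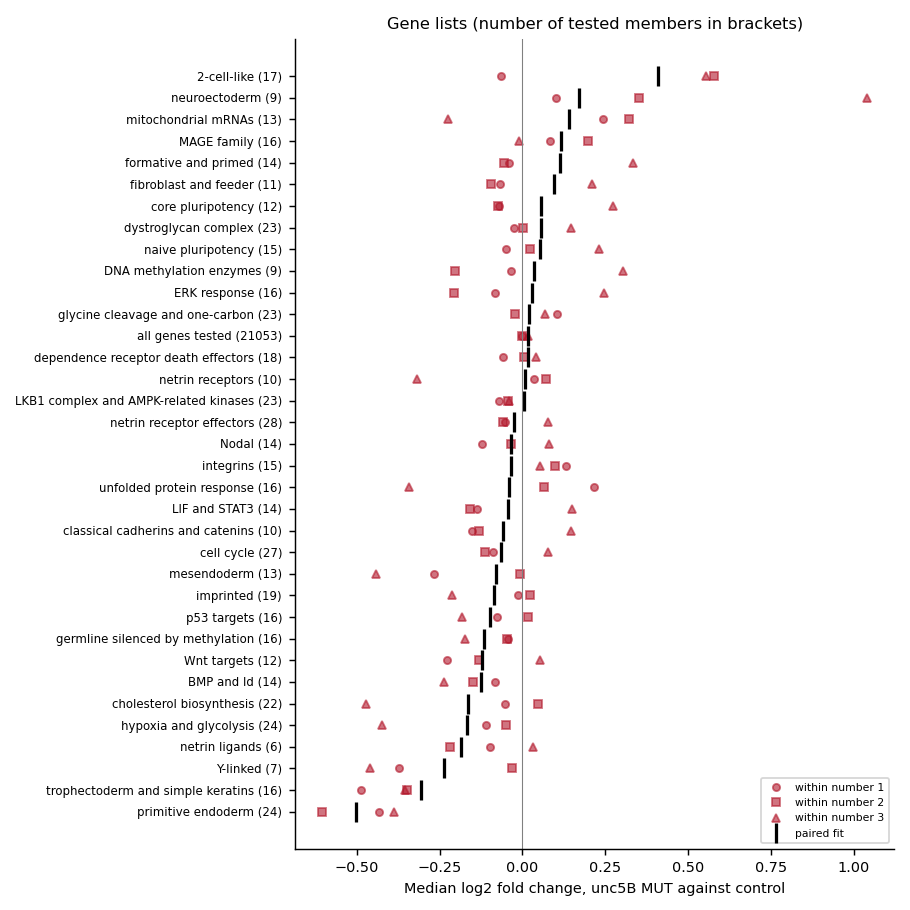
Median log2 fold change of unc5B MUT against control for each gene list shown, from the paired fit (bar) and within numbers 1, 2 and 3 (circle, square, triangle), with the number of tested members in brackets. The primitive endoderm list lies lowest at -0.50 with all numbers below -0.35.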

How the data were processed

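Sample titles gave the groups and the replicate numbers. The authors deposited estimated counts for 52661 Ensembl genes, which were rounded to whole counts; 53.8% to 58.3% of the values in a library were not whole. Their normalized table was not used, and their deposited comparison table (log2 fold change, signed fold score, p-value and adjusted p-value, per the file headers) was used only where named. The submitters' processing notes name STAR 2.5.2b, FastQC 0.11.5, R 3.3.2, DESeq2, Bowtie2 and Bowtie, and the builds GRCm38.p5, mm10 and GRCh38, with no roles. Which program estimated the counts is not given in the sources.

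GENCODE M21 gave names and GRCm38 coordinates and matched 52566 IDs. All 12 libraries entered 1 edgeR 4.0.16 fit (R 4.3.3, limma 3.58.1) of group and replicate number, with TMM, filterByExpr (21053 genes kept), the quasi-likelihood F-test and Benjamini-Hochberg adjustment at 0.05. CPM use TMM library sizes, SEs are the absolute log2 fold change over the square root of F, and intervals are 95%. The scripted test was tried on counts simulated from the means and spread estimated in these libraries. That trial cannot speak to how the calls depend on single libraries. Deviations from the group means correlated at 0.58 to 0.88 in the 18 pairs of same-numbered libraries, at 0.49 to 0.76 between numbers 1 and 2, and at -0.83 to -0.60 between number 3 and another number. The check sets number 3 apart and hardly separates numbers 1 and 2, and the meaning of a number is not stated. No 2 libraries of a group agreed within sampling noise.

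The members and gene lists were chosen with earlier results of these data known. Named genes were the called genes, the next 10 each way in order of p (at least 5 CPM in the higher group on average, a conventional symbol, 1 sign in all numbers), receptor and pluripotency genes, the best-expressed list members and neighbours of called genes. The chromosome stretches, their genes and some list members were named after their values were seen. A few genes and 1 list under these rules are not reported here. Alternatives were no block, a block of 2 levels, fewer libraries, RLE, other filters, DESeq2 1.42.0 and limma-voom.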

Additional observations from a re-analysis of the deposited data

How the results depend on the processing

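The replicate block decided the counts: without it 0 genes passed between unc5B MUT and control (238 at an unadjusted p under 0.05) and 0 between unc5B MUT and netrin-1 WT, against 6 and 414 with it. A block of 2 levels gave 6 and 268. With only the 6 libraries of unc5B MUT and control 1 gene passed, Ntn1. No filter beyond 1 count gave 24 and 669, DESeq2 105 (51 higher, 54 lower) and 1483, and limma-voom 8 and 901. RLE factors, and a minimum of 1 CPM, each gave 6 for the first pair, with the same genes. Leaving out replicates gave 0 to 16 for the first pair and 0 to 2845 for the second.

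Over all alternatives the median log2 fold changes were -0.54 to -0.49 for the chromosome 13 stretch, 0.15 to 0.22 for chromosome 3, -1.06 to -0.89 for Map3k3 to Strada, 1.02 to 1.14 for Dag1 to Rhoa and 0.96 to 1.53 for the Xlr genes; other CPM minimums for the first 2 were added after seeing the data. Of 17 alternatives Ntn1 was called in 14, Magee2 in 13, Dag1 in 10, and Amt, Rhoa and Strada in 8 each, all with the same sign. The primitive endoderm median lay between -0.57 and -0.39, and that of the netrin receptors changed sign in 7 of 17. The causes were not tested. Of the 21053 genes tested 12596 had an interval within a 2-fold difference either way. For the rest the interval reached past 2-fold, so differences of that size were not excluded for them. Among the 12596, differences under 2-fold may still be present.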
